A study of Mus musculus with 24 samples.

Results

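The 10 genes described here encode the hormone hepcidin and proteins that move, store or release iron in the cell: Hamp, Hamp2, Slc40a1, Slc11a1, Slc11a2, Tfrc, Fth1, Ftl1, Hmox1 and Cp. They were taken by name from a table of 32561 genes measured by RNA sequencing in 24 mouse aortas, and each of the 10 names was found. The genes were listed because of how some of them changed with the Klotho mutation in these same libraries. The 3 comparisons of Kl/Kl with control are therefore given as a description, without p-values. Where a gene is said to be called in them, by the threshold defined below, that too is a description and not a test of the gene. All mice were of the 129S1/SvlmJ strain, backcrossed over more than 10 generations, and aged 44 to 53 days. There were 4 aortas, each from 1 animal, in each of 6 groups: ∆UCS males with and without the Klotho mutation, Bmp2+/+ females with and without it, and Bmp2+/+ males with and without it. Mutant mice were homozygous for the recessive Klotho allele (Kl/Kl) and are labelled as having renal failure, and control mice carried 1 mutant allele or none and are labelled as having healthy kidneys. ∆UCS males were homozygous for a mutated Bmp2 allele of that name, and Bmp2+/+ mice had both Bmp2 alleles intact. Both mutations are carried in every tissue, so a difference in the aorta can have its source in another organ. The study asked how renal failure, sex and the Bmp2 allele bear on gene expression in the aorta.

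Hepcidin is a peptide hormone made mainly by the liver, which binds the iron exporter ferroportin (Slc40a1) and sends it for degradation, so that iron stays inside macrophages and gut cells. In hepatocytes, BMP ligands acting through SMAD proteins and interleukin 6 acting through STAT3 switch on Hamp, which links this list to the Bmp2 allele of the study. Mice carry a second hepcidin gene, Hamp2, beside Hamp. What is said here of the hormone is for the product of Hamp. The action of the Hamp2 product was not measured, so Hamp2 reads and their share of hepcidin reads are not a measure of hormone action on iron. Inside cells, iron-regulatory proteins bind hairpins called iron-responsive elements, where they block translation from the 5′ end of a transcript or protect it from decay at its 3′ end.

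The hepcidin genes lie on the minus strand of chromosome 7 in mm39, Hamp (ENSMUSG00000050440) at 30641793 to 30643458 and Hamp2 (ENSMUSG00000056978) at 30621797 to 30624107. The 250 bases before the start of each are shown because Hamp and Hamp2 gave different values below while their promoters are nearly the same. The sequences come from RefSeq on GRCm38.p6, 5′ to 3′ on the minus strand, with capitals for the BMP-responsive site GGCGCC of Hamp, for the bases aligned with it in Hamp2, and for the STAT motif TTCNNNGAA.
Hamp, chr7:30944030-30944279: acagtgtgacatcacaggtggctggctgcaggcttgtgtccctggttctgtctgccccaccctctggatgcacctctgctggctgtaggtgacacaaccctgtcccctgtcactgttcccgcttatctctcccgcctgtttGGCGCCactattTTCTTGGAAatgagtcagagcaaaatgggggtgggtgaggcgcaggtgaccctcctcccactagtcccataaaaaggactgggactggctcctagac
Hamp2, chr7:30924182-30924431: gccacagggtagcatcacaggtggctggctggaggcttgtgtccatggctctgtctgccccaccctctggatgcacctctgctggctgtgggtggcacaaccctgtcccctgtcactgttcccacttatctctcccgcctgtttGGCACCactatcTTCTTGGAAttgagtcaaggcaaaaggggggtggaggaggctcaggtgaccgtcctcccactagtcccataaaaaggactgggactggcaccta

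Over windows that also take in 50 bases after the start, 276 of 297 aligned bases were identical (92.9%). The STAT motif was found in both windows with the same letters. GGCGCC was found in the Hamp window, and Hamp2 differed from it by G4A, counted from 1 at the 5′ end of the site. Among 32851 RefSeq promoter windows of the same length, 11.9% held GGCGCC, 8.3% held TTCNNNGAA and 0.645% held both; each motif reads the same on either strand, and the motifs do not overlap in these windows. Promoter windows were found for 7 of the 10 genes; besides Hamp and Hamp2, Tfrc held GGCGCC in 1 window, and Slc11a1, Cp, Ftl1 and Fth1 held neither motif. A match or its absence is a description of these letters, and binding was not measured.

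Iron-responsive elements are shown for the 4 genes that held one by the search below. Their place, in the 5′ or the 3′ UTR, bears on how iron-regulatory proteins act on the transcript. The search asked for a bulged C, 5 bases, the loop CAGTGN with a last base other than G, and 5 bases that pair with the first 5 (G with T allowed), in GENCODE M21 transcripts. Capitals mark the bulged C and the loop.
Fth1, 5′ UTR: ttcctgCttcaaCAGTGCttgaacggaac
Ftl1, 5′ UTR: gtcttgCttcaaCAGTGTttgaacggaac
Slc40a1, 5′ UTR: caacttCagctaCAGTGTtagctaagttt
Tfrc, 3′ UTR, element 1: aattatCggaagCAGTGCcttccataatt
Tfrc, 3′ UTR, element 2: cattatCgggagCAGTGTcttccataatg
Tfrc, 3′ UTR, element 3: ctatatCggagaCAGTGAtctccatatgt
Tfrc, 3′ UTR, element 4: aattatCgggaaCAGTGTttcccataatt

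Of 21877 genes searched, 0.105% held such a match in a 5′ UTR and 0.453% in a 3′ UTR. All 10 genes of the list were searched, and 6 held none by this pattern. The pattern is strict, so an element with other bases or pairing would be missed. A gene without a match may still hold an element.

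The values are TPM as deposited, scaled by genomic span, so they compare 1 gene between libraries and not genes with each other. The marker sums below add such values, so genes of short span can weigh most in them. Each sum is compared between libraries only. Libraries held 20593000 to 61109000 estimated reads, and mitochondrial genes took 40.2% to 61.2% of the TPM. Kl, the Klotho gene, had 0 to 17 estimated reads in Kl/Kl libraries and 3 to 30 in control libraries, too few to check the labels. In 2 libraries the sex-linked transcripts went against the labelled sex: in replicate 1 of the Kl/Kl Bmp2+/+ males, Xist, an X-linked RNA of females, reached 11.4 TPM and the Y-linked Ddx3y 0.0138 TPM, while in replicate 2 of the Kl/Kl females these were 0.0281 and 4.81 TPM. The other 22 libraries matched, and group values below leave out those 2 unless stated, so Kl/Kl has n = 3 in Bmp2+/+ males and females and n = 4 in ∆UCS males. A gene was tested with limma on log2(TPM + 1) if at least 4 libraries reached 1 TPM, which held for 9861 genes, and it was called if its Benjamini-Hochberg adjusted p over all of them was below 0.05. All 10 genes passed this filter, but Hamp2 and Slc11a1 reached 1 TPM in 8 libraries each, all of them Kl/Kl, and so could pass only by being high there.

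Hamp2 was higher in Kl/Kl aortas than in controls in each of the 3 comparisons, with no overlap, while Hamp overlapped between Kl/Kl and control males of either Bmp2 genotype. In ∆UCS males Hamp2 was 5.46, 5.66, 3.30 and 0.342 TPM in Kl/Kl, against 0.0575, 0.112, 0.170 and 0.108 TPM in controls. In Bmp2+/+ females it was 1.86, 2.64 and 0.826 TPM in Kl/Kl, against 0.179, 0.0271, 0.0815 and 0.0245 TPM in controls. In Bmp2+/+ males it was 15.8, 3.43 and 40.6 TPM in Kl/Kl, against 0.216, 0.133, 0.187 and 0.0946 TPM in controls. The Kl/Kl libraries all stood above the controls but were themselves widely spread, and replicate 4 of the ∆UCS Kl/Kl males came nearest to the controls. The log2(TPM + 1) change was 1.84 ± 0.48 (SE) in ∆UCS males, 1.31 ± 0.52 in females and 3.80 ± 0.53 in Bmp2+/+ males, and only the last was called. Leaving out any 1 library of those 2 groups kept it called, at 2.84 to 4.51, but within library set 1 alone, a set named by the spelling of the library names, it was 2.84 ± 0.71 and not called.

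The 2 libraries left out were low in Hamp2, at 0.0556 TPM in the one labelled female and 0.134 TPM in the one labelled male, both within the range of controls. With all 24 libraries as labelled the Hamp2 change was 0.98 ± 0.72 in females and 2.73 ± 0.72 in Bmp2+/+ males, and neither was called. Adding 1 to the TPM compresses a gene this low. On reads estimated from the floor of each gene and fitted with limma voom, Hamp2 changed by 4.24 ± 0.74 in ∆UCS males, 4.21 ± 0.74 in females and 6.60 ± 0.71 in Bmp2+/+ males, and all were called. Hamp2 had 319 to 2862 estimated reads in Kl/Kl Bmp2+/+ males, against 9 to 16 in their controls.

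Hamp was spread widely inside most groups. In ∆UCS males it was 4.85, 4.64, 12 and 3.28 TPM in Kl/Kl, against 1.13, 3.60, 4.12 and 8.14 TPM in controls. In Bmp2+/+ females it was 8.17, 22 and 18.1 TPM in Kl/Kl, against 8.15, 2.54, 3.29 and 2.86 TPM in controls. In Bmp2+/+ males it was 12, 5.42 and 37.8 TPM in Kl/Kl, against 19.0, 7.48, 15.9 and 4.26 TPM in controls. The groups overlapped in males of both Bmp2 genotypes, and in females the lowest Kl/Kl library stood only just above the highest control. The change was 0.50 ± 0.57 in ∆UCS males, 1.73 ± 0.62 in females and 0.41 ± 0.63 in Bmp2+/+ males, and none was called. Within library set 2 alone, which holds all female libraries, the female change was 1.73 ± 0.41 and was called. That fit also called more of all genes in females than the main one, as given below. Without Kl/Kl replicate 4 the Bmp2+/+ male value of Hamp turned to −1.01 ± 0.64. That replicate is the only Kl/Kl male of library set 2. By median, Hamp stood in the order Kl/Kl females (18.1 TPM), Kl/Kl Bmp2+/+ males (12), control Bmp2+/+ males (11.7), Kl/Kl ∆UCS males (4.74), control ∆UCS males (3.86) and control females (3.08), and each neighbouring pair in that order overlapped.

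**Figure D1:**
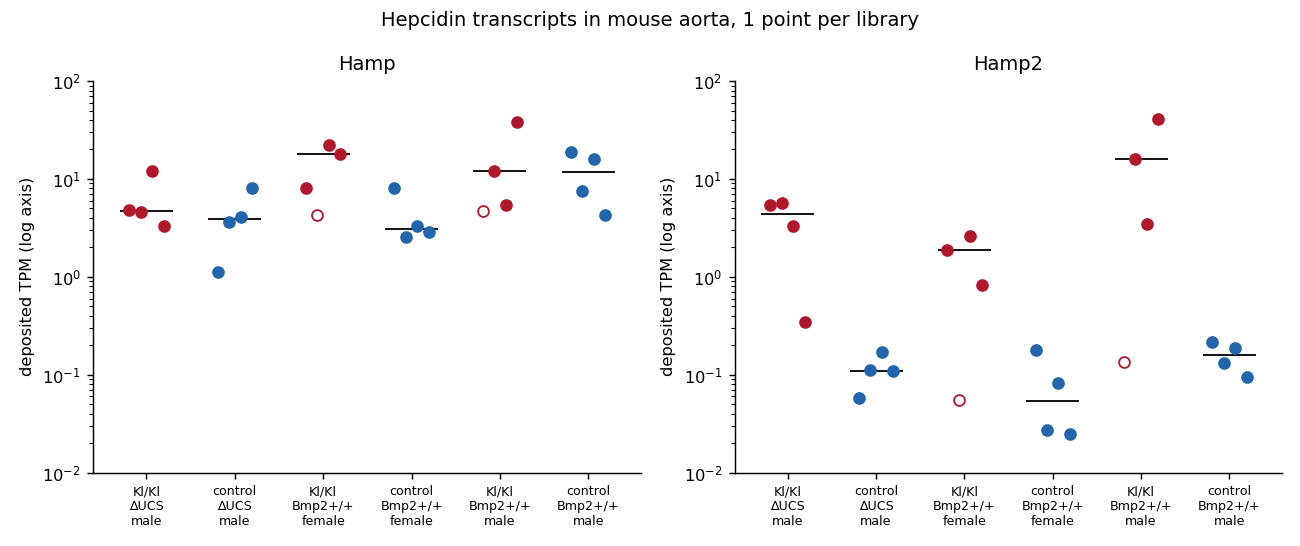
Deposited TPM of Hamp and Hamp2 on a log axis, 1 point per library, Kl/Kl red and control blue, hollow points for the 2 libraries left out, and a bar at the median of the others. All filled Kl/Kl points of Hamp2 stand above all control points, by 0.342 TPM against 0.170 TPM at the closest in ∆UCS males, while the Hamp points of Kl/Kl and control males overlap.

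The share of hepcidin reads that came from Hamp2 was a further measure, chosen after the values were seen. It was 61.0%, 62.9%, 27.7% and 12.6% in ∆UCS Kl/Kl males, against 6.59%, 4.12%, 5.42% and 1.82% in ∆UCS controls. It was 24.1%, 14.2% and 5.96% in Kl/Kl females against 2.96%, 1.46%, 3.32% and 1.17% in control females, and 64.7%, 46.8% and 59.8% in Kl/Kl Bmp2+/+ males against 1.55%, 2.40%, 1.61% and 2.99% in their controls. The 2 libraries left out were low here too. The share was 1.77% in the one labelled female, within the control females, and 3.78% in the one labelled male, just above the control Bmp2+/+ males. Hamp2 thus held a few percent of hepcidin reads in every control group. In the kept Kl/Kl libraries it held 46.8% to 64.7% of them in Bmp2+/+ males and 12.6% to 62.9% in ∆UCS males. For Kl/Kl mice the mean share was 14.8% ± 9.06 among females and 57.1% ± 9.26 among Bmp2+/+ males (SD, n = 3 each), without overlap; the exact two-sided permutation p was 0.1, the smallest that 3 against 3 allow, and 0.3 after adjustment over 12 ratio tests. Between ∆UCS and Bmp2+/+ the share was 41.1% ± 24.9 (n = 4) against 57.1% ± 9.26 (n = 3) in Kl/Kl males (exact permutation p = 0.343, adjusted 0.651) and 4.49% ± 2.05 against 2.14% ± 0.686 in control males (SD, n = 4 each, exact permutation p = 0.0857, adjusted 0.3). How reads that match both genes were counted is not given in the sources used here, so the split between Hamp and Hamp2 is uncertain. Gm44662, on the plus strand across both genes, had 8.92 to 57.3 estimated reads in ∆UCS Kl/Kl males against 11.3 to 20.4 in ∆UCS controls, 3.26 to 45.1 in Kl/Kl against 5.14 to 12.3 in control females, and 23.0 to 203.6 in Kl/Kl against 11.2 to 17.3 in control Bmp2+/+ males.

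Heart muscle also makes hepcidin, and atrial muscle can reach into the root of the great vessels, so marker sums of such cells were followed. Summed TPM of 9 atrial cardiomyocyte markers was 95.3 to 2562 in Kl/Kl and 31.3 to 853 in control ∆UCS males, 397 to 4164 in Kl/Kl and 206 to 387 in control females, and 154 to 2903 in Kl/Kl and 208 to 1468 in control Bmp2+/+ males; 1 of 8 tested markers was called, in females. Across the 12 control libraries Hamp rose with this sum (both in log2, r = 0.848, permutation p = 0.00058, adjusted over 24 relations 0.0139; rho = 0.727, permutation p = 0.00977, adjusted 0.0586), with r = 0.655 without the 2 libraries farthest from the median. Within library sets it was 0.881 in set 1 and 0.732 in set 2 (n = 6 each). Across the 10 Kl/Kl libraries r was 0.600 (permutation p = 0.0701, adjusted 0.105; rho = 0.564, permutation p = 0.0976, adjusted 0.156), 0.480 without the 2 farthest, and 0.200 in the 6 of set 1. For Hamp2 the controls gave r = 0.554 (permutation p = 0.0616, adjusted 0.0986; rho = 0.685, permutation p = 0.0170, adjusted 0.0745), 0.485 without the 2 farthest, 0.919 in set 1 and 0.5 in set 2. The Kl/Kl libraries gave r = −0.152 (permutation p = 0.674, adjusted 0.704) and rho = −0.188 (permutation p = 0.606, adjusted 0.727). Whether Hamp and Hamp2 differ in this relation was not tested.

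Hamp also rose with the sum of 12 macrophage markers, whose levels are given with Slc11a1. Across controls r was 0.788 (permutation p = 0.00205, adjusted 0.0170; rho = 0.762, permutation p = 0.0055, adjusted 0.0586), 0.741 without the 2 farthest, 0.915 in set 1 and 0.283 in set 2. Across Kl/Kl libraries r was 0.759 (permutation p = 0.0129, adjusted 0.0442; rho = 0.709, permutation p = 0.0274, adjusted 0.0745), 0.579 without the 2 farthest and 0.662 in set 1. Hamp2 and the macrophage sum had r = 0.564 in controls (permutation p = 0.0552, adjusted 0.0947; rho = 0.664, permutation p = 0.0216, adjusted 0.0745) and 0.388 in Kl/Kl (permutation p = 0.269, adjusted 0.358; rho = 0.0182, permutation p = 0.972, adjusted 1). These relations were chosen with the values known, and the libraries share groups, so they are descriptions.

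**Figure D2:**
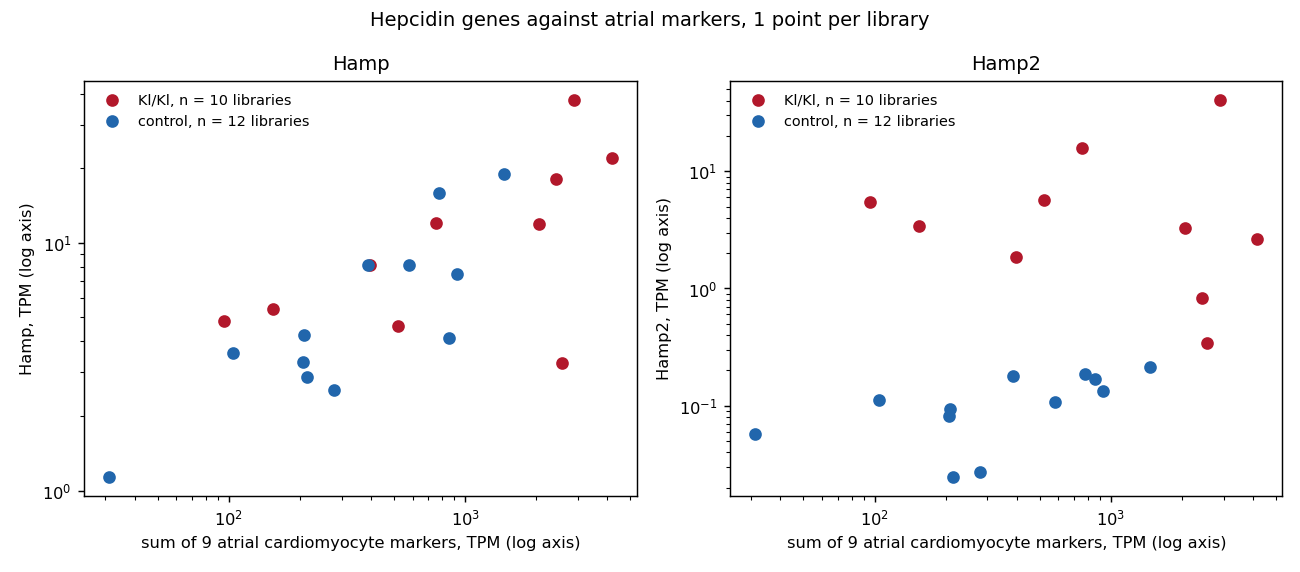
TPM of Hamp and Hamp2 against the summed TPM of 9 atrial cardiomyocyte markers, both on log axes, 1 point per library, 10 Kl/Kl (red) and 12 control (blue). Control points of Hamp climb with the marker sum (r = 0.848 on log2 values), while for Hamp2 the Kl/Kl points lie above the controls at low and at high marker sums.

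Hepatocyte markers were low but higher in Kl/Kl libraries of ∆UCS males and of females, with a sum of 8 markers of 1.56 to 2.06 TPM in Kl/Kl and 0.388 to 0.840 TPM in control ∆UCS males, 1.52 to 5.81 and 0.293 to 0.419 TPM in Kl/Kl and control females, and 0.831 to 3.63 and 0.371 to 1.29 TPM in Kl/Kl and control Bmp2+/+ males. The albumin gene Alb had 1 to 109 estimated reads in any kept library and the fibrinogen gene Fgb had none in control females. Ahsg, which encodes the plasma protein fetuin A, had more: 60 to 487 estimated reads in Kl/Kl and 40 to 75 in control ∆UCS males, 180 to 1457 and 18 to 46 in Kl/Kl and control females, and 117 to 561 and 23 to 116 in Kl/Kl and control Bmp2+/+ males. It reached 5.29 TPM in a Kl/Kl female, where the highest sum was 5.81 TPM. Hamp and the hepatocyte sum had r = 0.624 across controls (permutation p = 0.0307, adjusted 0.0751) and 0.631 across Kl/Kl libraries (permutation p = 0.0476, adjusted 0.0879), the second falling to 0.0721 without the 2 farthest. Hamp2 had r = 0.605 (permutation p = 0.0352, adjusted 0.0767) and 0.153 (permutation p = 0.675, adjusted 0.704). Pancreatic acinar markers, of a tissue known to express Hamp2 in mice, summed to 0.0395 to 0.400 TPM in ∆UCS Kl/Kl males, with that range holding the other groups. Prss2 was at 0 reads in control females and control ∆UCS males, Cela2a and Cel in control ∆UCS males, and Ctrb1 in Kl/Kl Bmp2+/+ males. Across the 12 controls, where Hamp2 was at most 0.216 TPM, it rose with that sum (r = 0.769, permutation p = 0.0031, adjusted 0.0186; rho = 0.853, permutation p = 0.0007, adjusted 0.0168; r = 0.751 without the 2 farthest, 0.995 in set 1 and 0.663 in set 2, n = 6 each). Across the 10 Kl/Kl libraries r was 0.0267 (permutation p = 0.943, adjusted 0.943) and rho −0.00606 (permutation p = 1, adjusted 1). Beyond these relations, the part of such cells in the hepcidin values was not tested.

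Slc11a1, on chromosome 1 (74414354 to 74425222, plus strand), encodes NRAMP1, which pumps iron and manganese out of the phagosome of macrophages. It was 2.04, 2.5, 1.70 and 0.957 TPM in ∆UCS Kl/Kl males, against 0.482, 0.479, 0.536 and 0.656 TPM in ∆UCS controls. It was 3.29, 2.74 and 1.43 TPM in Kl/Kl females against 0.318, 0.374, 0.333 and 0.342 TPM in control females, and 4.25, 0.904 and 2.77 TPM in Kl/Kl Bmp2+/+ males against 0.620, 0.335, 0.811 and 0.315 TPM in their controls. Every Kl/Kl library stood above every control of its own comparison, and replicate 3 of the Bmp2+/+ males was close to the highest control. The change was 0.83 ± 0.25 in ∆UCS males, 1.34 ± 0.27 in females and 1.13 ± 0.27 in Bmp2+/+ males, called in females only. Under voom on estimated reads (1.30 ± 0.24, 2.24 ± 0.27 and 2.01 ± 0.27 in the same order) and under median-of-ratios scaling (0.64 ± 0.13, 1.08 ± 0.14 and 0.98 ± 0.15) all 3 were called. The libraries left out were again low, at 0.566 TPM in the one labelled female and 0.421 TPM in the one labelled male, and with all 24 the changes were 0.83 ± 0.32, 1.06 ± 0.32 and 0.84 ± 0.32, none called.

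Macrophage markers moved alongside. The 12 markers summed to 265 to 451 TPM in Kl/Kl against 40.2 to 127 TPM in control ∆UCS males, 706 to 732 TPM against 50.7 to 87.4 TPM in females, and 421 to 710 TPM against 42.2 to 209 TPM in Bmp2+/+ males. Of the 8 tested, 4, 6 and 4 were called higher in that order, with median log2 changes of 1.76, 2.58 and 2.01. In the 2 libraries left out the 12 markers summed to 65.2 TPM (labelled female) and 130 TPM (labelled male), both within the range of their controls. Cd68, a lysosomal protein of macrophages, was 15.9 to 35.2 TPM in Kl/Kl and 2.19 to 4.58 TPM in control ∆UCS males. In whole aortas, more cells of a type and more RNA per cell cannot be told apart, so relations to this sum are given as descriptions, with p-values adjusted over the same 24 relations. Across the 12 controls Slc11a1 had r = 0.739 (permutation p = 0.00573, adjusted 0.0275; rho = 0.531, permutation p = 0.0801, adjusted 0.137), but 0.390 without the 2 farthest libraries, 0.949 in set 1 and −0.447 in set 2, so it rests on those libraries and did not hold within set 2. Across the 10 Kl/Kl libraries Slc11a1 had r = 0.654 (permutation p = 0.0441, adjusted 0.0879; rho = 0.636, permutation p = 0.0542, adjusted 0.115), 0.640 without the 2 farthest. Of 9 neutrophil markers 3 were tested and 0 called by limma. Their sum was 5.07 to 31.0 TPM in Kl/Kl and 0.514 to 4.31 TPM in control ∆UCS males, 3.89 to 22.6 and 0.883 to 16.5 TPM in Kl/Kl and control females, and 5.69 to 66.9 and 0.759 to 10.2 TPM in Kl/Kl and control Bmp2+/+ males, apart in ∆UCS males and overlapping in the other strata.

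Slc11a2 (15:100285779-100322954, minus strand) encodes DMT1, which carries iron across the membrane of endosomes and gut cells, and unlike its relative Slc11a1 it was not called in any comparison. It was 0.437 to 1.29 TPM in Kl/Kl and 0.655 to 1.00 TPM in control ∆UCS males, 0.941 to 1.54 and 0.806 to 0.981 TPM in Kl/Kl and control females, and 0.707 to 1.69 and 0.458 to 1.24 TPM in Kl/Kl and control Bmp2+/+ males. The groups overlapped throughout. The changes were 0.10 ± 0.17, 0.24 ± 0.19 and 0.07 ± 0.19, and all 3 turned negative under median-of-ratios scaling (−0.08, −0.01 and −0.01). Reads of Slc11a1 per read of Slc11a2, a ratio that no library scaling alters, averaged 0.555 ± 0.114 in Kl/Kl and 0.193 ± 0.026 in control ∆UCS males (SD, n = 4 each). They averaged 0.571 ± 0.110 (n = 3) and 0.113 ± 0.004 (n = 4) in Kl/Kl and control females, and 0.680 ± 0.284 (n = 3) and 0.173 ± 0.067 (n = 4) in Kl/Kl and control Bmp2+/+ males. Of the 2 libraries left out, the one labelled female had a ratio of 0.185, above the control females. The one labelled male had 0.146, within the range of its controls.

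Slc40a1 (1:45947228-45965684, minus strand) encodes ferroportin, the exporter that hepcidin binds. It was 0.670 to 1.99 TPM in Kl/Kl and 0.751 to 1.89 TPM in control ∆UCS males, 1.13 to 1.26 and 0.574 to 1.51 TPM in Kl/Kl and control females, and 1.69 to 1.81 and 1.21 to 1.85 TPM in Kl/Kl and control Bmp2+/+ males. Kl/Kl and control libraries overlapped in every comparison, and the changes were −0.03 ± 0.20, 0.15 ± 0.21 and 0.10 ± 0.21, the female one −0.09 under median-of-ratios scaling. Tfrc (16:32427738-32451613, plus strand) encodes the transferrin receptor, which takes up iron bound to transferrin. It was 1.34 to 3.00 TPM in Kl/Kl and 2.71 to 5.5 TPM in control ∆UCS males, 1.99 to 7.27 and 2.15 to 3.83 TPM in Kl/Kl and control females, and 1.39 to 3.64 and 1.80 to 5.35 TPM in Kl/Kl and control Bmp2+/+ males. These groups overlapped too, and the changes of −0.47 ± 0.32, 0.35 ± 0.34 and −0.35 ± 0.35 were not called; voom turned the female one to −0.10.

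The ferritin shell stores iron and is built from a heavy chain with an iron-oxidising site (Fth1, 19:9957962-9962463, plus strand) and a light chain that favours core formation (Ftl1, 7:45107368-45109309, minus strand). Ftl1 was 493, 402, 362 and 404 TPM in ∆UCS Kl/Kl males, against 129, 164, 150 and 205 TPM in ∆UCS controls. It was 585, 472 and 226 TPM in Kl/Kl females against 118, 152, 142 and 149 TPM in control females, and 650, 221 and 609 TPM in Kl/Kl Bmp2+/+ males against 264, 157, 344 and 183 TPM in their controls. The groups were apart in ∆UCS males and in females and overlapped in Bmp2+/+ males, where Kl/Kl replicate 3 lay among the controls. The change was 1.36 ± 0.34, 1.5 ± 0.36 and 0.93 ± 0.37, called in females only, and no longer called there under median-of-ratios scaling (1.01 ± 0.28) or voom (0.94 ± 0.30). With all 24 libraries it was 1.21 ± 0.37 in females and 0.76 ± 0.37 in Bmp2+/+ males, neither called. Within set 1, Ftl1 was called in ∆UCS males (1.36 ± 0.30) and was 0.33 ± 0.43 in Bmp2+/+ males (1.72% and 0.133% of all genes were called in set 1 alone). Ftl1 and the macrophage sum had r = 0.810 across controls (permutation p = 0.00213, adjusted 0.0170; rho = 0.629, permutation p = 0.0325, adjusted 0.0780), 0.555 without the 2 farthest, 0.950 in set 1 and −0.412 in set 2, and so did not hold within set 2. Across Kl/Kl libraries r was 0.315 (permutation p = 0.368, adjusted 0.465; rho = 0.467, permutation p = 0.178, adjusted 0.252).

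Fth1 moved less. It was 272 to 361 TPM in Kl/Kl and 218 to 282 TPM in control ∆UCS males, 203 to 397 and 197 to 230 TPM in Kl/Kl and control females, and 199 to 462 and 172 to 297 TPM in Kl/Kl and control Bmp2+/+ males, overlapping each time. Its changes were 0.40 ± 0.26, 0.47 ± 0.28 and 0.48 ± 0.28, none called, and under median-of-ratios scaling the female one was −0.02 ± 0.21. Ftl1 reads per Fth1 read averaged 0.574 ± 0.084 in Kl/Kl and 0.292 ± 0.027 in control ∆UCS males (SD, n = 4 each), 0.589 ± 0.093 (n = 3) and 0.285 ± 0.024 (n = 4) in females, and 0.567 ± 0.077 (n = 3) and 0.416 ± 0.083 (n = 4) in Bmp2+/+ males. In the 2 libraries left out the ratio was 0.306 (labelled female) and 0.387 (labelled male), both within the range of their controls. Among controls the ratio was lower in ∆UCS than in Bmp2+/+ males without overlap, by −0.124 (exact permutation p = 0.0286, the smallest possible, adjusted over 12 tests 0.3), and in females than in Bmp2+/+ males by −0.131 (exact permutation p = 0.0571, adjusted 0.3). In Kl/Kl the differences were 0.00721 (exact permutation p = 0.971, adjusted 0.971) and 0.0222 (exact permutation p = 0.5, adjusted 0.651). Both ferritin genes have processed copies that can share reads. In ∆UCS males Ftl1-ps1 had 17210 to 24292 estimated reads in Kl/Kl and 8253 to 12254 in controls. Ftl1 itself had 24834 to 36294 and 12098 to 18286 there. Fth1-ps had 952 to 1377 estimated reads in Kl/Kl and 882 to 1302 in control ∆UCS males, against 43735 to 61977 of Fth1 in those Kl/Kl males. How reads that match a gene and its copy were counted is not given, so the ratio of Ftl1 to Fth1 reads is uncertain.

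**Figure D3:**
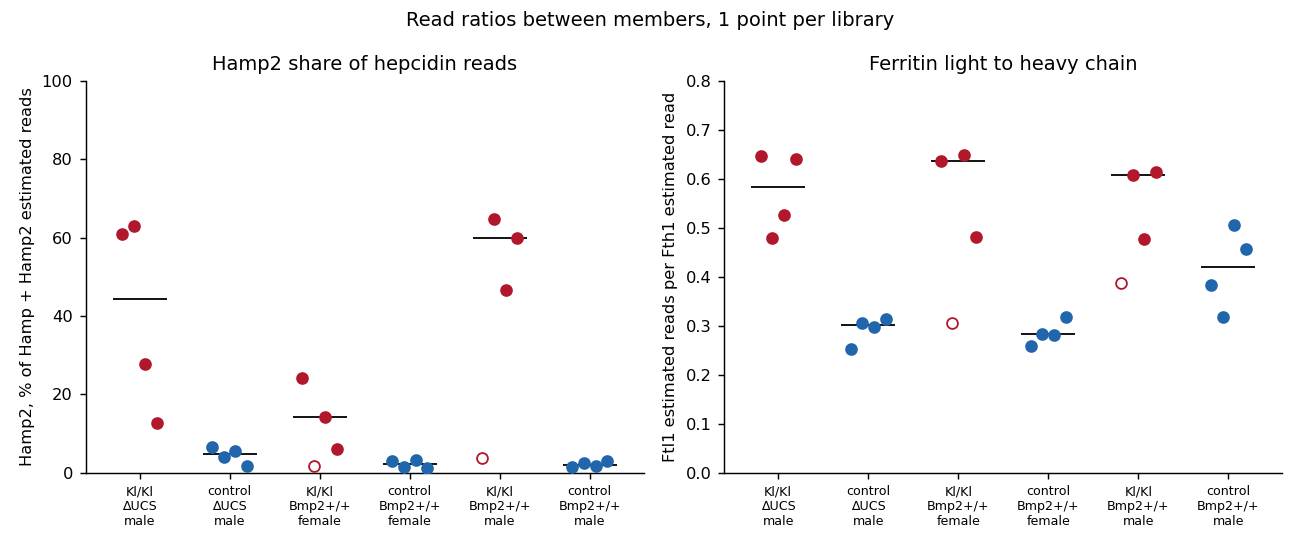
Hamp2 as a percentage of all hepcidin reads, and Ftl1 reads per Fth1 read, 1 point per library with a bar at the group median and hollow points for the 2 libraries left out. Filled points of Kl/Kl Bmp2+/+ males lie at 46.8% to 64.7% of hepcidin reads and those of Kl/Kl females at 5.96% to 24.1%. By filled points, the ferritin ratio of Kl/Kl libraries lies above that of their controls in ∆UCS males and in females.

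Hmox1 (8:75820249-75827218, plus strand) encodes heme oxygenase 1, which frees iron from heme and is induced by heme and oxidants. It was 5.71, 8.48, 9.39 and 1.67 TPM in ∆UCS Kl/Kl males, against 1.19, 1.24, 1.45 and 3.26 TPM in ∆UCS controls. It was 6.16, 15.5 and 2.34 TPM in Kl/Kl females against 4.29, 3.68, 2.09 and 1.23 TPM in control females, and 5.81, 2.32 and 13.0 TPM in Kl/Kl Bmp2+/+ males against 5.23, 1.40, 4.30 and 1.17 TPM in their controls. In each comparison 1 Kl/Kl library lay inside the range of controls and the others above it. The changes of 1.28 ± 0.55, 1.02 ± 0.59 and 0.88 ± 0.60 were not called. Within set 1 the Bmp2+/+ male value of Hmox1 was −0.27 ± 0.60. Hmox1 and the macrophage sum had r = 0.7 across controls (permutation p = 0.0102, adjusted 0.0408; rho = 0.650, permutation p = 0.0251, adjusted 0.0745), 0.643 without the 2 farthest, 0.865 in set 1 and 0.519 in set 2. Across Kl/Kl libraries r was 0.405 (permutation p = 0.238, adjusted 0.336; rho = 0.406, permutation p = 0.247, adjusted 0.330). Summed red blood cell markers were 608 to 1195 TPM in Kl/Kl and 504 to 4382 TPM in control ∆UCS males, 419 to 1575 and 279 to 466 TPM in Kl/Kl and control females, and 139 to 1194 and 101 to 1454 TPM in Kl/Kl and control Bmp2+/+ males. Hmox1 and this sum had r = −0.222 across controls (permutation p = 0.497, adjusted 0.597) and −0.169 across Kl/Kl libraries (permutation p = 0.658, adjusted 0.704).

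Cp (3:20011218-20063310, plus strand) encodes ceruloplasmin, a copper ferroxidase that works with ferroportin to load iron on transferrin. It was 5.30, 7.5 and 4.57 TPM in Kl/Kl females, against 1.95, 1.45, 1.2 and 1.22 TPM in control females. It was 1.41, 2.53, 4.45 and 0.853 TPM in Kl/Kl and 0.923, 1.14, 2.13 and 2.18 TPM in control ∆UCS males, and 5.87, 2.30 and 1.86 TPM in Kl/Kl and 2.11, 1.37, 1.72 and 0.796 TPM in control Bmp2+/+ males. The groups were apart in females and overlapped in males of both Bmp2 genotypes. The change was 0.27 ± 0.29 in ∆UCS males, 1.45 ± 0.32 in females and 0.62 ± 0.32 in Bmp2+/+ males, called in females, where it was 1.11 ± 0.34 and not called with all 24 libraries. Markers of airway epithelium, a tissue that lies beside the thoracic aorta and expresses Cp, summed to 1037 to 2646 TPM in Kl/Kl and 6.76 to 932 TPM in control ∆UCS males, 2575 to 3606 and 275 to 1361 TPM in Kl/Kl and control females, and 566 to 2724 and 452 to 1935 TPM in Kl/Kl and control Bmp2+/+ males. Of 8 tested, 2 were called in ∆UCS males, 2 in females and 0 in Bmp2+/+ males, and across the 10 Kl/Kl libraries Cp and this sum had r = 0.707 (permutation p = 0.0242, adjusted 0.0725) and rho = 0.794 (permutation p = 0.00842, adjusted 0.0586), with r = 0.844 without the 2 farthest and 0.580 in set 1. Across controls Cp had r = 0.570 (permutation p = 0.0313, adjusted 0.0751; rho = 0.566, permutation p = 0.0583, adjusted 0.115). The part of airway tissue in the Cp value was not tested further.

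**Figure D4:**
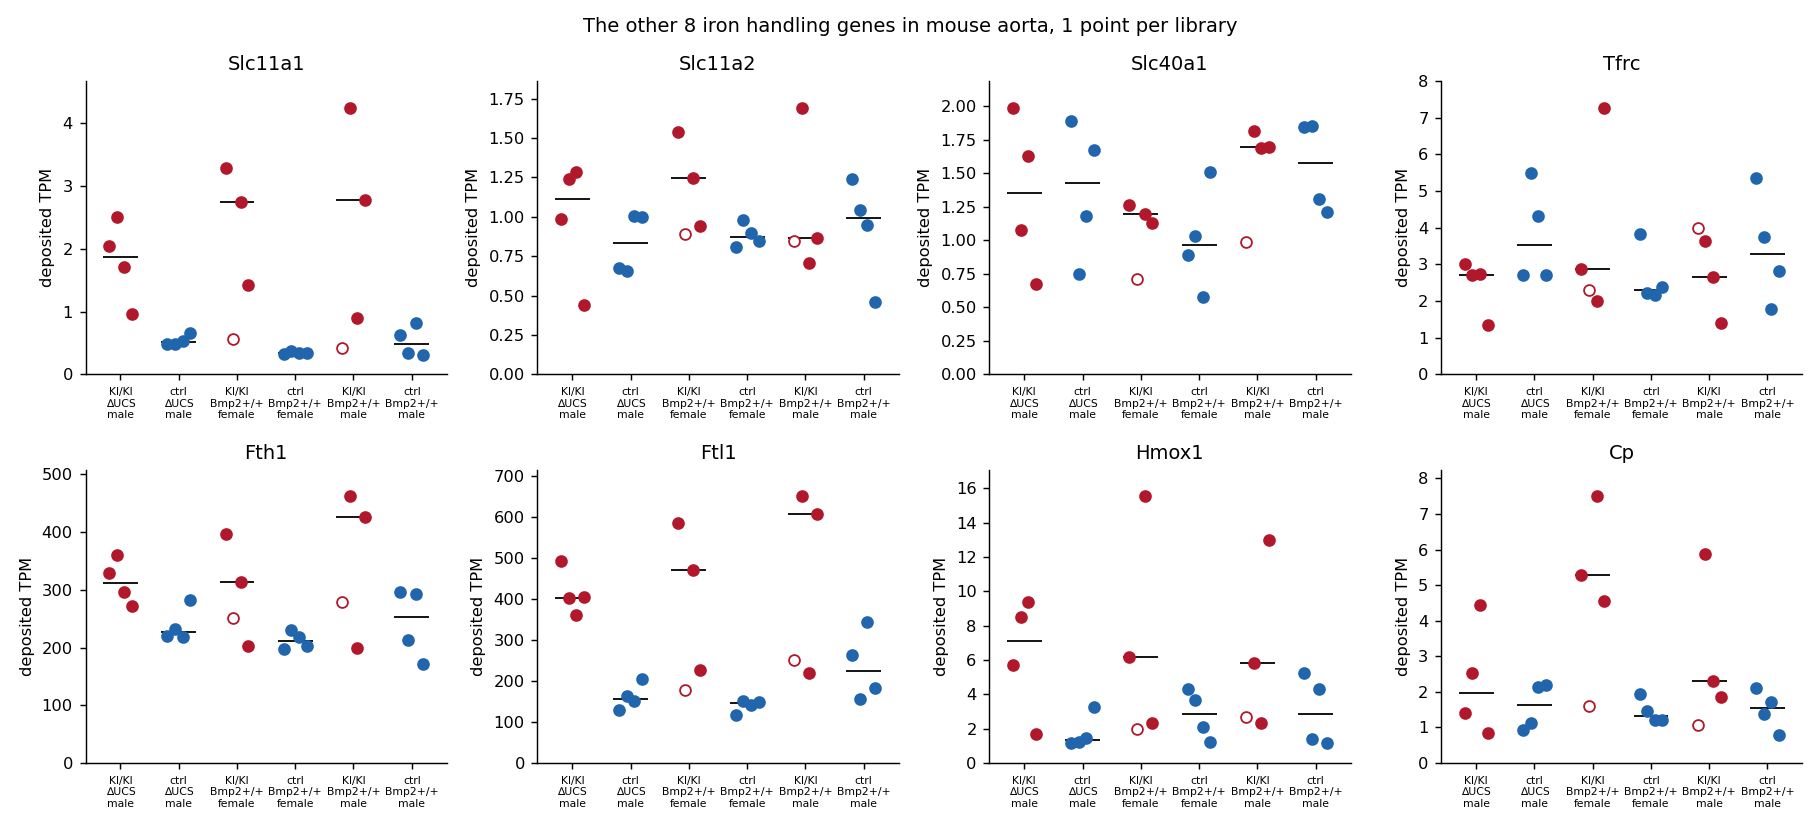
Deposited TPM of the other 8 genes, 1 point per library on linear axes from 0, Kl/Kl red and control blue, hollow points for the 2 libraries left out and a bar at the median of the others. By filled points, Slc11a1 is apart between Kl/Kl and control in all 3 comparisons, Ftl1 in ∆UCS males and females and Cp in females. Slc11a2, Slc40a1, Tfrc, Fth1 and Hmox1 overlap in each.

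Counted over the list, 0 of the 10 genes were called for Kl/Kl in ∆UCS males (0.649% of all genes tested were), 3 in females (Slc11a1, Ftl1 and Cp; 2.63%) and 1 in Bmp2+/+ males (Hamp2; 1.11%), all higher in Kl/Kl; the list was chosen on this contrast, so nothing is read from these shares. Leaving out 1 library moved the calls of the list and of all genes together. Without replicate 3 of the Kl/Kl Bmp2+/+ males, 4 were called there (Hamp2, Slc11a1, Fth1 and Ftl1) and 4.16% of all genes. Without replicate 1 or 3 of the Kl/Kl females 0 were called there (1.32% and 1.37% of all genes). Without replicate 3 of the control females Slc11a1 alone was (1.5%), and without replicate 2 or 4 of them Ftl1 was not (1.64% and 1.8%). Without replicate 4 of the ∆UCS Kl/Kl males Hamp2 was called (2.36 ± 0.42; 1.64%). By limma, at an unadjusted p below 0.05, 1665 genes passed in ∆UCS males. With all 24 libraries as labelled, 0 were called in any comparison (0.0% of 9933 genes; 1628, 1498 and 603 genes passed an unadjusted 0.05 in ∆UCS males, females and Bmp2+/+ males). Under median-of-ratios scaling 2, 2 and 2 were called (1.31%, 3.8% and 1.81% of genes) and under voom 2, 3 and 2 (1.21%, 3.26% and 1.51%). Every Kl/Kl library stood above every control for 3 genes in ∆UCS males (Hamp2, Slc11a1 and Ftl1; 8.2% of all genes did so), 5 in females (those and Hamp and Cp; 28.3%) and 2 in Bmp2+/+ males (Hamp2 and Slc11a1; 5.77%). The median log2 change of the 10 was 0.45, 1.17 and 0.55, beside 0.26, 0.29 and 0.09 over all genes tested. Under median-of-ratios scaling the median of all genes was 0.025, −0.017 and −0.021.

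**Figure D5:**
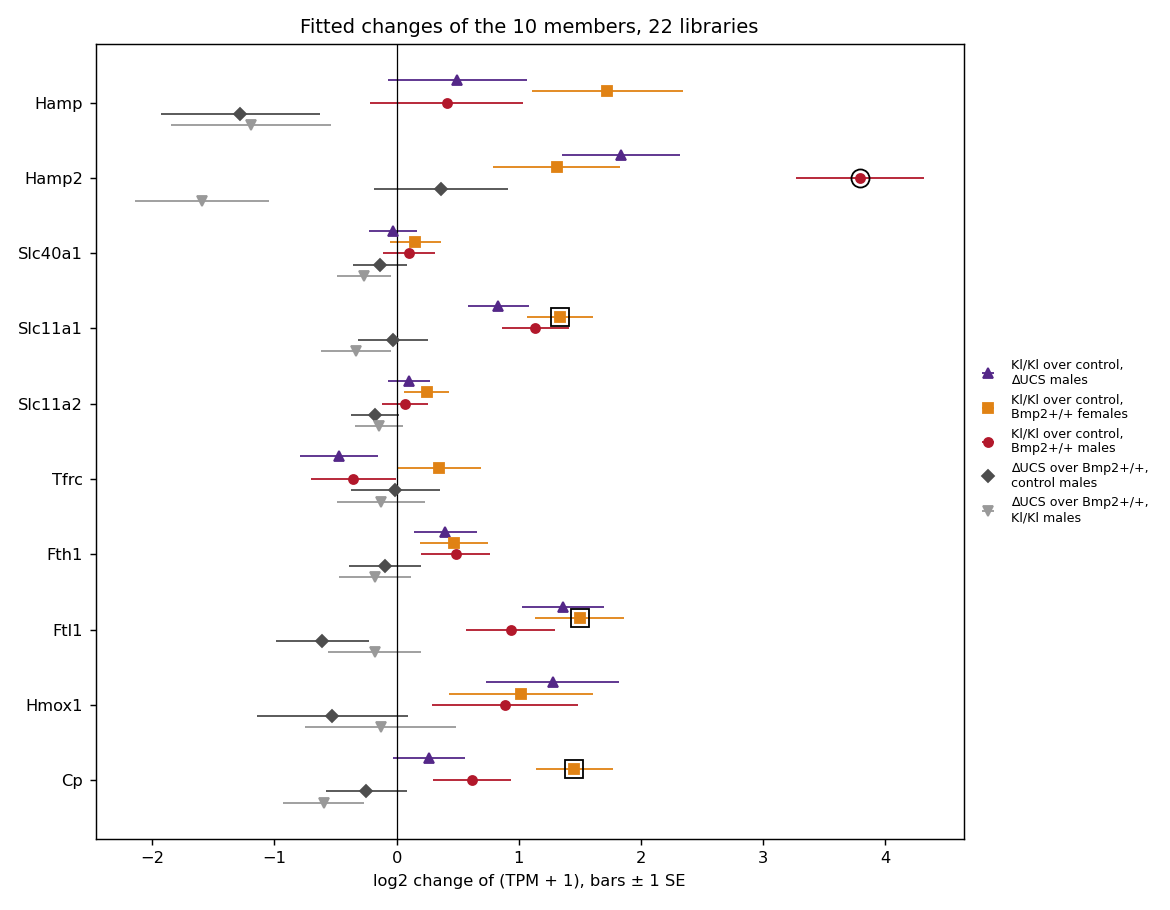
Fitted log2 changes of (TPM + 1) with bars of 1 SE for the 10 genes, from 22 libraries: Kl/Kl over control in ∆UCS males, females and Bmp2+/+ males, then ∆UCS over Bmp2+/+ in control and in Kl/Kl males. Marks ringed in black were called: Hamp2 at 3.80 in Bmp2+/+ males, and Slc11a1 (1.34), Ftl1 (1.5) and Cp (1.45) in females; no mark for ∆UCS over Bmp2+/+ is ringed.

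The comparison of ∆UCS with Bmp2+/+ asks whether the mutated Bmp2 allele goes with other levels of these genes. Limma called 0 of the 10 among controls and 0 among Kl/Kl males, and 0.0% of the 9861 genes tested in either; 216 and 180 genes passed an unadjusted p of 0.05. Median-of-ratios scaling (379 and 280 genes below an unadjusted 0.05) and voom (1378 and 670 of 22306) also called 0. Hamp averaged 4.25 ± 2.90 TPM in ∆UCS controls and 11.7 ± 6.93 TPM in Bmp2+/+ controls (SD, n = 4 each), with overlap and a log2 change of −1.28 ± 0.65 (limma adjusted p = 0.958). Hamp2 averaged 3.69 ± 2.48 TPM (n = 4) in ∆UCS Kl/Kl males and 19.9 ± 18.9 TPM (n = 3) in Bmp2+/+ Kl/Kl males, a change of −1.60 ± 0.55 (limma adjusted p = 1). The fit adjusts for library set, and in controls this set the sign for several genes. Hamp2 averaged 0.112 ± 0.046 TPM in ∆UCS and 0.158 ± 0.054 TPM in Bmp2+/+ controls (SD, n = 4 each), yet its fitted change was 0.36 ± 0.55, against −0.06 without the library set, −0.11 in set 1 alone and −0.17 with all 24 libraries. Cp averaged 1.60 and 1.5 TPM, Tfrc 3.81 and 3.43 TPM and Slc11a1 0.538 and 0.520 TPM in ∆UCS and Bmp2+/+ controls, with fitted changes of −0.25, −0.01 and −0.03 that turned to 0.05, 0.14 and 0.03 without the library set. No direction is drawn for these 4 genes. The other 5 had fitted changes of −0.61 to −0.09 in controls, of which Fth1 turned to 0.14 and Slc40a1 to 0.00 under median-of-ratios scaling. In Kl/Kl males the genes other than Hamp and Hamp2 changed by −0.60 to −0.13, and Hamp by −1.19. All limma adjusted p-values of these changes were 0.958 to 1. Several signs in Kl/Kl males moved with the libraries. In set 1 alone Hmox1 turned to 0.45, Ftl1 to 0.12 and Fth1 to 0.04. Without replicate 2 of the Kl/Kl Bmp2+/+ males, Slc11a1, Slc11a2, Tfrc, Fth1 and Ftl1 turned to 0.06 to 0.14. All ∆UCS libraries are in library set 1, and within set 1 Hamp changed by −1.99 ± 0.56 in controls and Hamp2 by −1.12 ± 0.61 in Kl/Kl males, neither called.

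For none of the 10 did every ∆UCS library lie above or below every Bmp2+/+ library. Among all genes, every ∆UCS library lay above for 0.203% (controls) and 0.071% (Kl/Kl), and below for 0.892% and 1.06%. Atrial markers were 31.3 to 853 TPM in ∆UCS controls and 208 to 1468 TPM in Bmp2+/+ controls beside the Hamp values. The Klotho change was also set against itself across the Bmp2 genotypes. For Hamp2 the change in ∆UCS males less that in Bmp2+/+ males was −1.96 ± 0.71, not called. The list was chosen on such changes, so this value is a description and not a test. Limma called 0 of the 10 genes and 0.0% of all genes, with 204 below an unadjusted 0.05. Voom called 0 with 1906 below it.

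Females and males were compared with Bmp2+/+ alone. In controls 0 of the 10 were called and 0.0304% of genes were; Hamp was 4.21 ± 2.64 TPM in females and 11.7 ± 6.93 TPM in males (SD, n = 4 each, log2 change −1.18 ± 0.65, limma adjusted p = 1). Ftl1 was the 1 gene of the list with every female control below every male control (1.75% of genes were). In Kl/Kl mice Hamp2 averaged 1.78 ± 0.910 TPM in females and 19.9 ± 18.9 TPM in males (SD, n = 3 each). The log2 change was −3.01 ± 0.66, and 0 of the 10 and 0.0304% of genes were called. Hamp2 was called there under median-of-ratios scaling (−2.97 ± 0.49, with 0.0406% of genes called) and under voom (−4.36 ± 0.72, 0.0359%). It was also called without replicate 3 of the Kl/Kl males (−3.49, 0.0406%), and no other alternative called it. The list was chosen on Kl/Kl values, and in the fits on TPM Hamp2 passed the filter only through Kl/Kl libraries. These calls are therefore a description and not a test of sex. Without replicate 4 of the Kl/Kl males the change was −1.58. Hamp2 and Slc40a1 were the 2 genes with every Kl/Kl female below every Kl/Kl male (0.71% of genes). With all 24 libraries Hamp2 differed by −1.75 ± 0.80, not called. All female libraries are in set 2, which holds 1 of the 3 Kl/Kl males, so sex and library set cannot be told apart beyond the fitted set term.

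The Klotho change in females less that in Bmp2+/+ males was −2.48 ± 0.74 for Hamp2 and 1.32 ± 0.88 for Hamp. These values too are a description, as the list was chosen on such changes. Limma called 0 of the 10 and 0.0% of all genes for this difference, with 141 below an unadjusted 0.05. Voom called 0 with 628 below it. In library set 2 alone the Hamp difference turned to −0.81, and Hamp2 was not tested.

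Genes around hepcidin were taken from lists by pathway, drawn up with earlier results of these data known. Those called for Kl/Kl are named, Bmp2, Bmp6 and Il6 are named whatever they did, and Id1 was picked after its values were seen. Of 24 genes of upstream control, 10 passed the filter; 0 were called in ∆UCS males, 1 in females and 0 in Bmp2+/+ males. The 1 was Hfe, whose product tells hepatocytes of the iron load, at 2.17 ± 0.668 TPM (n = 3) in Kl/Kl and 0.958 ± 0.115 TPM (n = 4) in control females (SD, change 0.68 ± 0.17), lost under median-of-ratios scaling. The medians of these 10 were 0.28, 0.38 and 0.24. Id1, a target of BMP signalling, changed by 0.52 ± 0.28, 0.60 ± 0.30 and 0.93 ± 0.30, none called. The ligand genes Bmp2 and Bmp6 and the cytokine gene Il6 were below the filter. Bmp2 was 0.562 ± 0.407 and 0.317 ± 0.124 TPM in Kl/Kl and control ∆UCS males (SD, n = 4 each), 0.474 ± 0.346 (n = 3) and 0.338 ± 0.013 TPM (n = 4) in females, and 0.393 ± 0.236 (n = 3) and 0.347 ± 0.101 TPM (n = 4) in Bmp2+/+ males. Bmp6, the ligand that iron induces in liver endothelium, was 0.118 ± 0.030 and 0.140 ± 0.016 TPM in Kl/Kl and control ∆UCS males (SD, n = 4 each), 0.0752 ± 0.0444 (n = 3) and 0.101 ± 0.030 TPM (n = 4) in females, and 0.119 ± 0.102 (n = 3) and 0.102 ± 0.066 TPM (n = 4) in Bmp2+/+ males. Il6 had 8 to 11 estimated reads in Kl/Kl and 2 to 9 in control ∆UCS males, 12 to 148 and 0 to 3 in females, and 6 to 36 and 2 to 6 in Bmp2+/+ males.

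Of 19 genes of iron uptake and transport, 8 were tested and 2 were called, both in females. Ltf, which encodes lactoferrin, an iron-binding protein of secretions and neutrophil granules, was 29.3 ± 15.5 TPM (n = 3) in Kl/Kl and 2.20 ± 0.62 TPM (n = 4) in control females (SD, change 3.15 ± 0.65). Lcn2, which encodes the siderophore-binding lipocalin 2, was 23.8 ± 24.5 TPM (n = 3) and 0.835 ± 0.360 TPM (n = 4) there (change 3.22 ± 0.67). Airway epithelium and neutrophils both express Ltf and Lcn2. In females the neutrophil sums were 3.89 to 22.6 TPM in Kl/Kl and 0.883 to 16.5 TPM in controls, with overlap. The airway sums there were 2575 to 3606 TPM in Kl/Kl and 275 to 1361 TPM in controls. The macrophage sums were also apart, at 706 to 732 TPM and 50.7 to 87.4 TPM. The part of any of these cells in the Ltf and Lcn2 values was not tested. The medians of the 8 were 0.35, 0.80 and 0.30. No gene was called by limma among 9 tested of 12 for heme and hemoglobin scavenging (medians 0.27, 0.37 and 0.30), 11 of 13 for iron storage and its regulators (0.17, 0.20 and 0.13) or 6 of 7 other NRF2 targets (0.29, 0.22 and 0.05). Under median-of-ratios scaling Ltf (2.07) and Aco1 (−0.76), which encodes an iron-regulatory protein, were called in ∆UCS males, Trf (1.12), the transferrin gene, in females, and Lcn2 (2.47) in Bmp2+/+ males.

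The genes most like 4 of the list were found by Pearson's r of log2(TPM + 1) after removing group means and library set, over the 22 libraries. For Hamp they were Trmt5, Cnih4 and Pum3 (r = 0.88 each), Fcgr3 (0.87) and Dctn6 (0.85). For Hamp2 they were Med18, Cd300a, Snhg17 and Tnip2 (0.93 each) and Renbp (0.92). For Slc11a1 they were Fbxw9 (0.97), Csf2ra, Ssh3, Cmtm3 and Uap1l1 (0.96 each), and for Hmox1 Serpina3n (0.94), Mt2, Hal and Uap1 (0.90 each) and Ifi207 (0.89). No gene appeared in more than 1 of these 4 lists, and every such r is over the same 22 libraries; the part of depth and tissue makeup in them was not tested.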

How the data were processed

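Polyadenylated RNA of 24 aortas was sequenced from directional libraries. The authors deposited TPM; the submitters' processing notes name Partek and the build mm39. The sources used here give no aligner, annotation release, strand setting or treatment of multiply matching reads. Every TPM column sums to 482073. No value is 0. The lowest values fit a constant of 0.0001 read added to each gene, a reading of the values that no source states, and reads per gene were estimated from these floors: of 256302 values between 0.5 and 20 reads, 73.3% lay within 0.05 of a whole number. No sample column was unmatched (0).

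Genes with at least 1 TPM in at least 4 libraries were tested with limma 3.58.1 (lmFit, eBayes with trend) in R 4.3.3 on log2(TPM + 1), a scale that understates the change of low genes. Terms were the 6 groups and the library set, named by the spelling of the library names; the 2 libraries whose sex-linked RNAs went against their labels were left out. P-values are two-sided and adjusted by Benjamini-Hochberg over all genes tested. The labels describe separate animals. Voom used 22306 genes with at least 10 estimated reads in at least 4 libraries. Ratios between genes were compared by exact permutation, and relations to marker sums with 100000 permutations, in Python 3.11.15 with numpy 2.4.6, pandas 2.3.3 and scipy 1.17.1. Promoters were aligned with Biopython 1.88 and figures drawn with matplotlib 3.10.9. The fit was tested on simulated data.

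Samples with the same replicate number did not deviate together (correlations of −0.478 to 0.321), so the number was not treated as a pairing. The 10 genes, the pathway and marker lists, the tests and the choice to leave out 2 libraries were made with earlier results of these data known. All 10 genes are named; of the pathway genes, up to 10 of those called for Kl/Kl are named, with Bmp2, Bmp6 and Il6; likeness was taken for Hamp, Hamp2, Slc11a1 and Hmox1, 5 genes each, leaving out predicted genes. The ratio tests and the relations to markers were added after the values were seen, and Id1, Slc11a1 with Slc11a2, and the airway and pancreatic sums were picked for the text after their values were seen. Estimated reads of 2 to 16 in control libraries limit the precision of Hamp2 there, and intervals of counting error were not used for groups with replicates.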

Additional observations from a re-analysis of the deposited data

Results flagged for a closer look

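Of 52 groups of 4 libraries examined for 1 library far from the other 3, a rule that marks about 1 in 20 by chance, 3 were marked. Hamp was 8.15 TPM in replicate 1 of the control females, against 2.54 to 3.29 TPM in the other 3 (gap over the group's range 0.867). Tfrc was 3.83 TPM in the same library, against 2.15 to 2.40 TPM in the other 3 (0.855). Hmox1 was 3.26 TPM in replicate 4 of the control ∆UCS males, against 1.19 to 1.45 TPM in the other 3 (0.874). Groups with 3 kept libraries were not examined.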

How the results depend on the processing

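For Kl/Kl against control in ∆UCS males, where 0 of the 10 genes were called, 1 was called with a pseudocount of 0.1, 2 with a minimum of 5 TPM, 2 under median-of-ratios scaling, 2 by voom and 1 in library set 1 alone; leaving out 1 replicate gave 0 to 1. In females, where 3 were called, 0 were called with all 24 libraries, with or without median-of-ratios scaling, and 1 with a minimum of 5 TPM, which tested 5 of the 10 and neither Slc11a1 nor Cp; leaving out 1 replicate gave 0 to 3. In Bmp2+/+ males, where 1 was called, 0 were called with all 24 libraries, with or without that scaling, 0 in set 1 alone, and 2 with a pseudocount of 0.1, under median-of-ratios scaling, without the library set and by voom; leaving out 1 replicate gave 1 to 4. Between Kl/Kl females and males 0 became 1 under that scaling and by voom, and 0 to 1 without 1 replicate. Leaving out 1 replicate gave 0 to 0 in the other 5 comparisons. Calls over all genes moved with the settings too, as given below, so nothing is read from the counts of the list. No value that was called changed sign. Of all such counts recomputed, 148 stayed within 1.5 times the reported one and 23 did not. Counts of 0 that stayed at 0 are among the 148, so that tally is not a measure of stability. Of the changes of single genes, 1539 moved by less than 1 SD and 116 by more. Sets alone lack some groups, and set 2 alone did not test Hamp2. With a replicate block 2 were called in females, since Ftl1 (1.51) no longer was, and no other call changed. Over all genes, 53 were called higher and 11 lower in ∆UCS males, 257 and 2 in females and 103 and 6 in Bmp2+/+ males; these became 71 and 58, 223 and 152, and 152 and 26 under median-of-ratios scaling, and by voom 160 and 111, 462 and 266, and 306 and 31. A minimum of 5 TPM gave 269 and 55, 126 and 4, and 46 and 2 in the same order, of 3676 genes tested. With a pseudocount of 0.1 these were 79 and 14, 227 and 1, and 102 and 6 of 9861. Without a filter, females had 975 and 13 of 32561. Without the library set, ∆UCS males had 77 and 24 and Bmp2+/+ males 132 and 6 of 9861. With a replicate block, females had 183 and 1 of 9861. Set 1 alone gave 140 and 15 in ∆UCS and 11 and 1 in Bmp2+/+ males, of 8998. Set 2 alone gave 891 and 30 in females and 172 and 4 in Bmp2+/+ males, of 7965. All 24 libraries gave 0 and 0 throughout, or 0 and 1 in ∆UCS males with that scaling. Control libraries held 2 to 16 reads of Hamp2, so its fold over controls is imprecise. The causes were not tested.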

Other observations

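Il1b, which encodes interleukin 1 beta, a cytokine that can raise hepcidin in hepatocytes, was chosen after its values were seen and stayed below the filter on TPM. It had 38 to 193 estimated reads in Kl/Kl and 17 to 76 in control ∆UCS males, 115 to 211 in Kl/Kl and 4 to 14 in control females, and 79 to 209 in Kl/Kl and 6 to 27 in control Bmp2+/+ males. The libraries of Kl/Kl and control mice overlapped in ∆UCS males and were apart in both Bmp2+/+ groups. Brown fat markers, summed, were 306 to 1073 TPM in Kl/Kl and 689 to 919 TPM in control ∆UCS males, 206 to 487 and 534 to 798 TPM in Kl/Kl and control females, and 231 to 454 and 713 to 990 TPM in Kl/Kl and control Bmp2+/+ males, where 1 of 5 tested was called lower.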
